A study of Arabidopsis thaliana with 2 samples.

Results

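ARF18 belongs to the auxin response factors (ARFs), transcription factors that bind auxin response elements in DNA through a B3 domain. Described here are ARF18 and the repressor ARFs taken as its close relatives, ARF9, ARF11, ARF1 and ARF2. They were chosen by locus number, and coding sequences were aligned among them only. Of these 5 genes, 4 have rows among the 21825 loci of the table. ARF11 (AT2G46530) has no row, so no value of it is given. RNA came from whole seedlings of Arabidopsis thaliana, ecotype Col, as 1 library of the wild type and 1 of an ARF18 overexpression line. The line is named 35S-ARF18-OE-2. In plant work 35S usually stands for a promoter of cauliflower mosaic virus that drives strong expression in most cells, though the labels do not spell it out. It is 1 line, and the labels do not say whether its seedlings were pooled. They give the age once as 7 days, and elsewhere as 4-day-old dark-grown seedlings moved to white light for another 7 days.

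An ARF has its B3 DNA-binding domain near the start, a middle region, and, in most members, a C-terminal domain through which it pairs with Aux/IAA proteins. When auxin is low, Aux/IAA proteins hold ARFs in check by recruiting TOPLESS co-repressors. Auxin lets the TIR1/AFB receptors send Aux/IAA proteins to the proteasome. The middle region separates activating ARFs from those classed as repressors, the class of all 5 genes here. ARF2 is known for limiting seed and organ size and for its part in the apical hook and in leaf senescence. ARF1, isolated through its binding to an auxin response element, acts partly together with ARF2 in senescence and floral organ shedding. ARF9 is known from the embryo's suspensor, and the ARF18 of Brassica napus for effects on seed weight and silique length.

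Among the 5 coding sequences, ARF18 and ARF11 were the closest pair, with 80.9% of 1757 aligned bases identical in the TAIR 10.1 RefSeq annotation. The other 9 pairs ranged from 64.4% (ARF18 and ARF2) to 68.0% (ARF9 and ARF11). The sequences below show the stretch, coding for part of the B3 domain, that holds the longest run of identical bases shared by ARF18 and ARF11. In the line of ARF18, capitals mark that run of 38 bases. In the other lines, capitals mark bases that differ from ARF18.
ARF18: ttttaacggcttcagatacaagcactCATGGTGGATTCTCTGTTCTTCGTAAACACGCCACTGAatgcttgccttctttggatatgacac
ARF11: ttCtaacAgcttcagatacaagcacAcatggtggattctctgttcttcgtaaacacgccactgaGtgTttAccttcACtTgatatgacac
ARF9: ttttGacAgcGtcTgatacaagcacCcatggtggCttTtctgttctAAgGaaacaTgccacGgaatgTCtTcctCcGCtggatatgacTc
ARF1: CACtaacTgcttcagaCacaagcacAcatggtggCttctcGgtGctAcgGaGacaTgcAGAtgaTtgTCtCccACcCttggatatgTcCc
ARF2: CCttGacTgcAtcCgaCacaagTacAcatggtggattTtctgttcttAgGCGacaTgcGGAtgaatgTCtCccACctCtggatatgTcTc
In this stretch of 90 bases, ARF11 differed from ARF18 at 9 positions, ARF9 at 19, ARF1 at 25 and ARF2 at 26. The stretch crosses 1 intron in each gene, all on the plus strand (TAIR 10.1), and lies at chr3:22889077-22889244 in ARF18 (exons 5 and 6), chr2:19105712-19105900 in ARF11 (exons 3 and 4 of AT2G46530.3), chr4:12452384-12452556 in ARF9 (exons 5 and 6), chr1:21981457-21981631 in ARF1 (exons 6 and 7) and chr5:24911751-24911942 in ARF2 (exons 5 and 6). None of the 2538 windows of 50 bases in the ARF18 transcripts occurs in another ARF transcript. Reads of 50 or more bases from ARF18 therefore have no exact match of that length in its relatives. The read length is not given in the sources used here.

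Counted reads summed to 7059226 for the wild type and 6824188 for the overexpression line. Each genotype had 1 library, so no test between genotypes could be made, and values describe these 2 libraries only. Intervals are exact and cover counting error only. For genes summed over several models they take each read as counted once, which is not known, and would otherwise be too narrow. In these whole-plant samples, fewer cells of a type and less RNA per cell cannot be told apart. All 3 shoot and all 3 root markers had reads in both libraries. Among shoot markers, the summed RPKM is led by CAB1 (7538 and 8601 in wild type and overexpression), with RBCS1A at 527.7 and 634.2 and FNR1 at 3.19 and 1.94. Among root markers, PYK10 stood at 10247 and 8523 and COBL9 at 13.4 and 10.4. The flower and seed markers AP1, AG and CRU3 have no row. The root marker TIP2;3, an aquaporin, had a wild-type RPKM of 6.60 and an overexpression RPKM of 18.1. The part of tissue proportions in the values below was not tested.

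ARF18 (AT3G61830; chromosome 3, 22887889 to 22891455, plus strand) was the member with the most reads in both libraries. It had 97 wild-type and 472 overexpression counts, and an RPKM (reads scaled to transcript length and library total) of 5.85 (95% exact Poisson interval 4.75 to 7.14) and 29.5 (26.9 to 32.3). The 2 intervals lie far apart. The count ratio per library total was 5.03 (95% exact conditional binomial interval 4.04 to 6.33). On the log2 scale of RPKM + 1 the difference was 2.15. Of 15083 expressed nuclear loci (mean RPKM of 1 or more), 1.25% were at least 2-fold higher in the overexpression library on this scale and 0.663% at least 2-fold lower. ARF18 ranked 7 of 15083 by this ratio, and 2 of the 10253 loci with a mean RPKM of 5 or more. ARF18 is the gene the line was made to overexpress, so its higher level checks the label. Counts of the transgene and of the gene at its own place on chromosome 3 are summed in 1 row and cannot be told apart.

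In the wild type, ARF18 was a gene of modest level: 64.0% of expressed nuclear loci had a higher RPKM. In the overexpression library 26.8% did. Among the 14 ARF loci with rows, it ranked 6 by RPKM in wild type, behind ARF3 (37.3), ARF5 (17.3), ARF4 (10.1), ARF10 (8.19) and ARF16 (6.12). The wild-type RPKM of ARF16 was 1.05 times that of ARF18 (95% exact conditional binomial interval 0.784 to 1.40), so these neighbours were not separated beyond counting error. That of ARF10 was 1.40 times as high (1.07 to 1.84), so ARF10 lay above ARF18 by more than counting error. In the overexpression library it ranked 2, and its interval of 26.9 to 32.3 lies below that of ARF3 (33.3 to 39.3) and above that of ARF5 (13.9 to 17.2). There the RPKM of ARF3, the ETTIN gene of organ polarity and gynoecium patterning, was 1.23 times that of ARF18 (1.09 to 1.39). ARF18 and the ARFs ranked above it have 1 transcript model each in the table. So do ARF8, ARF17, ARF19 and ARF20, which ranked below it. ARF1, ARF2, ARF6 and ARF9 have 2 or 3 models and had at most 1.36 RPKM in a library. If reads shared between a gene's models were left out, their levels may be understated. The same may hold for ARF18, which has a second annotated model without a row, if reads were also counted on that model. Whether that alters the ranks of ARF18 was not tested.

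**Figure D1:**
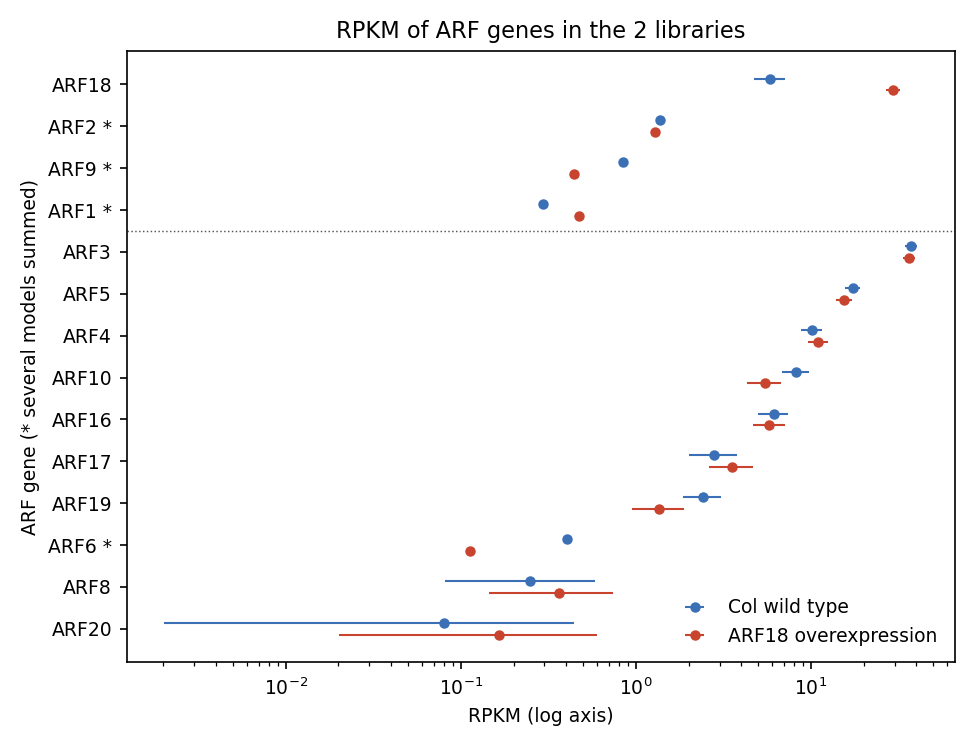
RPKM (log axis) of the 14 ARF genes with rows, ARF18 and its close relatives above the dotted line. Points are the 1 library of each genotype; bars are 95% exact Poisson intervals of genes with 1 transcript model, and starred genes, summed over models, have none. ARF18 moves from 5.85 to 29.5 RPKM, from just below ARF16 to between ARF5 and ARF3. Levels of the starred genes, and that of ARF18 through its second annotated model, may be understated, which was not tested.

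The relatives had far fewer counts, at most 33 in a library. The table gives counts per transcript model, and a gene's models share most of their sequence. RefSeq on TAIR 10.1 holds 2 models of ARF18, and the table has a row for AT3G61830.1 only. Beside the other model, AT3G61830.2, it had 348 distinguishing windows of 50 bases, that is, found in no other model of the gene, or 15.0% of its 2318. Whether AT3G61830.2 was among the models that reads were counted on is not given in the sources used here. If it was not, all 2318 windows stand for the row alone. For the relatives, models numbered above the highest in the table were left out. ARF9 has rows for both of its models, whose distinguishing windows made up 5.73% and 1.70% of the windows. In ARF1 the shares were 0% to 3.83% over 4 models, and in ARF2 0.942% to 3.94% over 4 models. The model of ARF1 with 0 distinguishing windows has no row. Nor does the model of ARF2 with the fewest, 35. ARF2 has a further annotated model, AT5G62000.5, with no row. Beside it, AT5G62000.1 and AT5G62000.3 would have 0 distinguishing windows.

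A like pattern was seen over the table. Among genes with a second or later model in it, 14.2% of 197 models with 0 distinguishing windows had a row, against 80.7% of 6651 models with at least 1. Each of these genes has at least 1 model with a row by selection, so the shares are partly set by it. Compared with all annotated models, a choice made after seeing the data, these shares were 28.3% of 2110 and 59.5% of 8085. How reads shared between models were counted is not given in the sources used here. If they were left out, the RPKM of ARF9, ARF1 and ARF2, which divides by the full transcript length, may be understated beside that of ARF18. By how much was not tested, nor was whether the same applies to ARF18 through its second model.

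**Figure D2:**
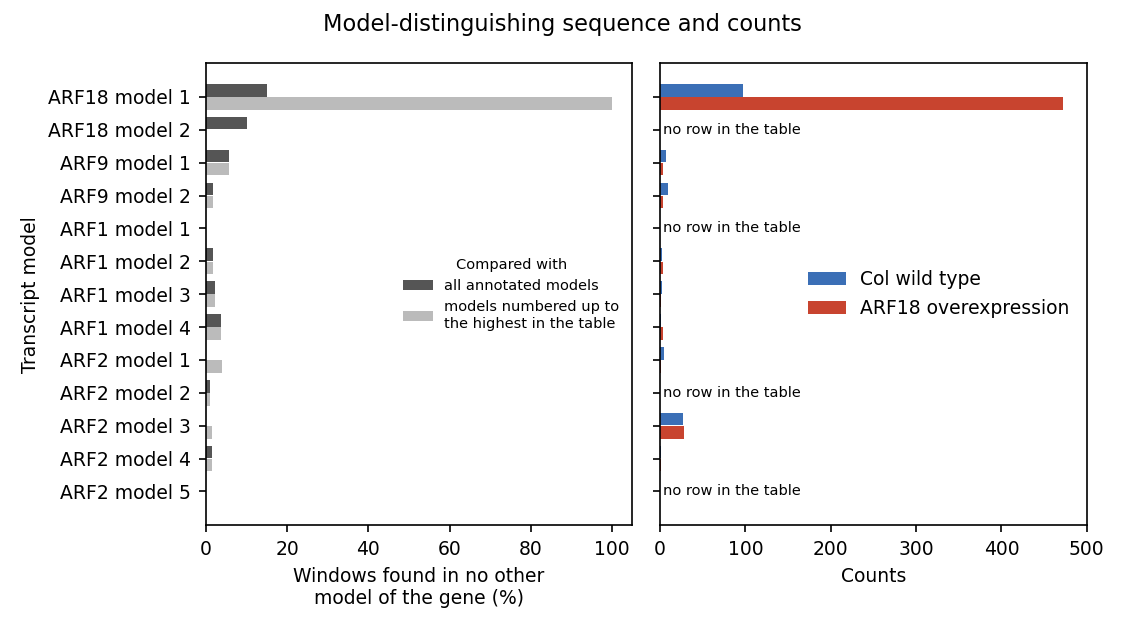
Left, the share (%) of each transcript model's 50-base windows found in no other model of its gene, among all annotated models (dark bars) or only those numbered up to the highest in the table (pale bars, none for ARF18 model 2 and ARF2 model 5); right, counts of the model in the wild-type and overexpression libraries. ARF18 model 1 stands at 15.0% or 100% with 97 and 472 counts, while the models of ARF9, ARF1 and ARF2 are at 5.73% or less by either measure, and the 8 of them with a row have at most 28 counts.

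ARF2 (AT5G62000; chromosome 5, 24910191 to 24915395) had 33 wild-type and 30 overexpression counts, or a summed RPKM of 1.36 and 1.29. The libraries were nearly level, with a count ratio of 0.940 (0.554 to 1.59) and a log2 ratio of -0.05. Most reads lay in the model AT5G62000.3, with 27 wild-type and 28 overexpression counts. The model AT5G62000.1, which has more distinguishing windows (149 against 50), had 5 and 1 counts, a ratio of 0.207 (0.00437 to 1.85). The model AT5G62000.4 had 1 count in each library. No model's interval excluded 1.

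ARF9 (AT4G23980; chromosome 4, 12451143 to 12455369) had 16 wild-type and 8 overexpression counts, or a summed RPKM of 0.845 and 0.440. The ratio was 0.517, and its interval of 0.192 to 1.28 includes 1. Both models were lower in the overexpression library, at 4 counts against 7 and 4 against 9. With 16 counts in wild type, the interval would have left 1 only at 5 or fewer counts in the overexpression library, or at 30 or more, that is, at a ratio of 0.323 or less, or of 1.94 or more.

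ARF1 (AT1G59750; chromosome 1, 21979289 to 21984433) had 5 wild-type and 8 overexpression counts, or a summed RPKM of 0.293 and 0.470. The ratio of 1.66 had an interval of 0.477 to 6.43. Its 3 models with rows had 2, 2 and 1 wild-type counts and 3, 1 and 4 overexpression counts. From 5 counts, no count in the overexpression library could have put the interval below 1, so a lower level of ARF1 was not detectable at this depth. Summed over ARF9, ARF1 and ARF2, there were 54 wild-type and 46 overexpression counts, a ratio of 0.881 (0.581 to 1.33).

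None of the 3 relatives with rows was 2-fold apart on the log2(RPKM + 1) scale, and none had a count ratio interval that excluded 1. Over all expressed nuclear loci 1.91% were 2-fold apart in either direction, and 34.3% had an interval that excluded 1, so this count says nothing particular of the relatives. Only ARF2 and ARF18 reached a mean RPKM of 1. In the authors' deposited table, ARF18 had a log2 ratio of 2.33 at an FDR of 8.7e-61. In the authors' deposited table, the 8 models of the relatives had FDR values between 0.408 and 1; the test behind them compares the reads of 2 libraries, not the genotypes.

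**Figure D3:**
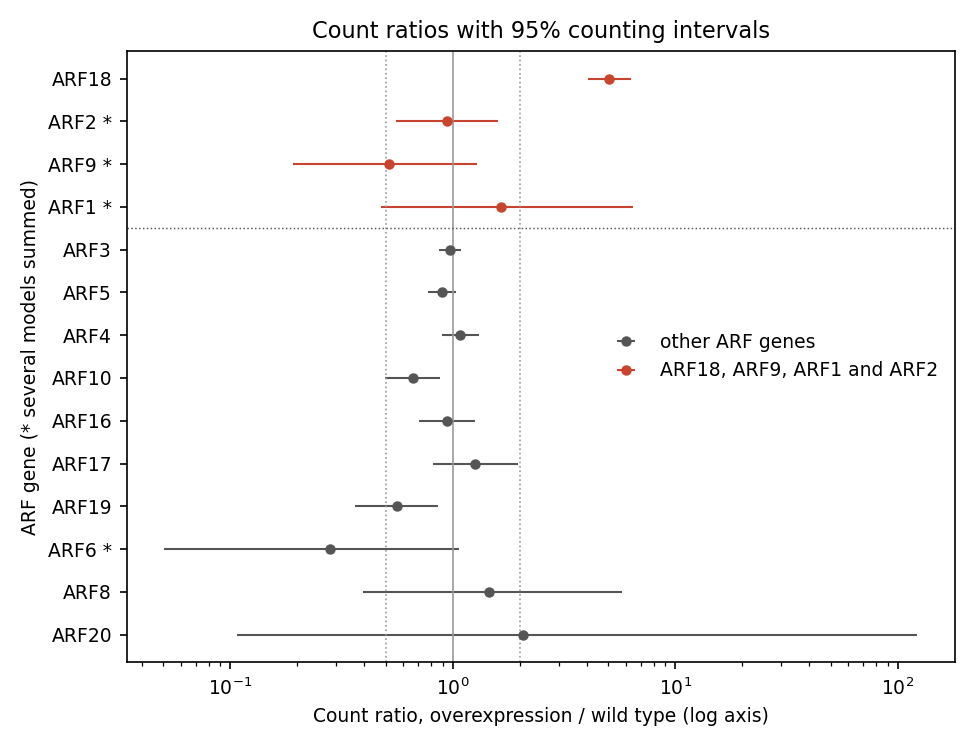
Count ratio of the overexpression over the wild-type library (log axis) for the 14 ARF genes with rows, with 95% exact conditional binomial intervals; the solid line is a ratio of 1 and the dotted lines are 2-fold. The interval of ARF18, 4.04 to 6.33, lies beyond the 2-fold line, and those of ARF2, ARF9 and ARF1 cross 1. Intervals of starred genes, summed over models, take each read as counted once, which is not known.

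The make-up of the measured group shifted with ARF18. Its share of the summed RPKM of the 4 genes was 70.1% in the wild-type library, against 93.1% in the overexpression library. As a share of their counts it held 64.2% (95% exact Clopper-Pearson interval 56.0 to 71.9) and 91.1% (88.3 to 93.4). ARF2 held 16.3% and 4.06% of the summed RPKM, ARF9 10.1% and 1.39%, and ARF1 3.50% and 1.49%. Other shares must fall where that of ARF18 rises, so these falls do not by themselves show lower levels of the relatives. Since the relatives' levels may be understated and ARF11 has no value, these are shares of the measured reads, not of all repressor ARF RNA.

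Long transcripts had lower ratios in general, and all 4 genes are long. Spearman's rho of the log2 ratio with transcript length was -0.52 over the 15083 loci, which share the same 2 libraries. The 1510 loci within 5 percentiles of the length of ARF18 (2347 bases) had a median log2 ratio of -0.18, and ARF18 was the highest of them. Adjusted for length and GC content, its log2 ratio was 2.31. Those of ARF2, ARF1 and ARF9 went from -0.05 to 0.32, from 0.19 to 0.41 and from -0.36 to -0.10, so the sign for ARF2 turned. It also turned, to 0.05, when the model with the most counts stood for the gene. None of the 3 was 2-fold apart either way. The adjustment took its medians from expressed loci, which do not include ARF1 and ARF9. Since the pseudocount shrinks the ratios of low genes, the adjustment may shift these 3 too far, which was not tested.

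**Figure D4:**
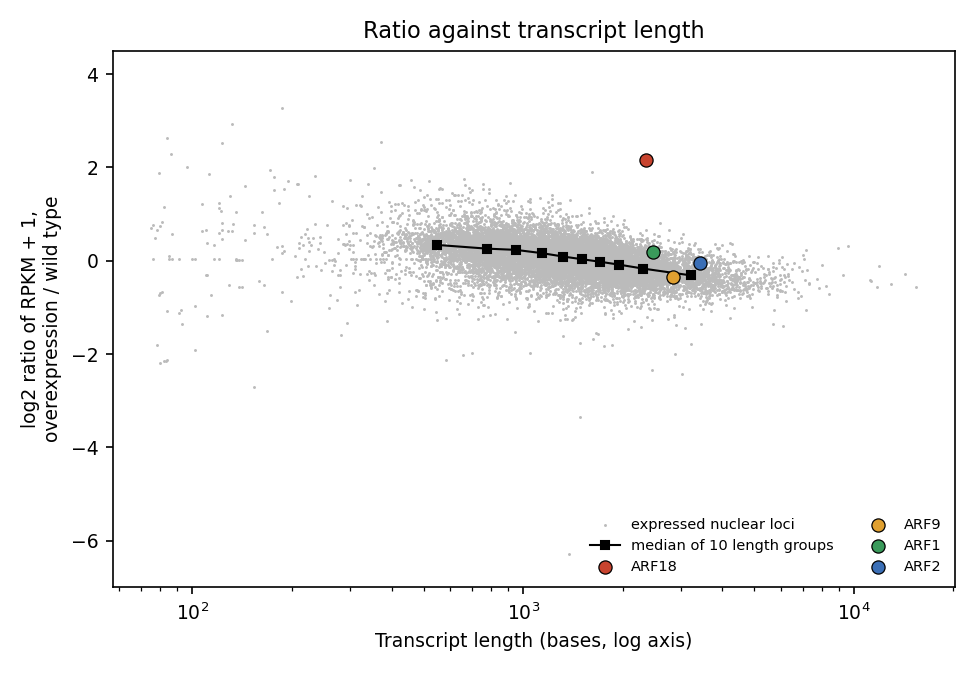
Log2 ratio of RPKM + 1, overexpression over wild type, against transcript length (bases, log axis) for 15083 expressed nuclear loci (grey), with the median of 10 equal groups by length (black) and the 4 members (coloured). The medians run from 0.34 in the shortest group to -0.31 in the longest; ARF18 stands at 2.15, above its length group, and ARF2, ARF9 and ARF1 lie within the grey cloud.

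The genes nearest to ARF18 in log2 ratio, over 2 libraries and among loci with a mean RPKM of 5 or more, were AT1G75166, AT1G69140 and AT2G35744. Their log2 ratios were 2.29, 1.99 and 1.88. Only AT1G69140, with 24 wild-type and 99 overexpression counts, had more than a few reads. The other genes had 1 wild-type count and 7 or 5 overexpression counts.

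The overexpression library also had reads just upstream of ARF18 on chromosome 3. The nearest annotated gene before it, AT3G61829, lies on the minus strand with 566 bases between it and ARF18. It had 0 wild-type and 6 overexpression counts, or at least 2.07-fold more when the wild-type library is set to 3 counts, its floor. The exact counting interval of the ratio, taken at the 0 counts observed, starts lower, at 1.22. Whether its reads came from the plus or the minus strand cannot be told apart, since strandedness is not given. Among 21682 nuclear loci, 23 had 0 counts in wild type and 6 or more in the overexpression library, and 13 the reverse. The nearest gene after ARF18, AT3G61840, has no row. The next gene with a row on either side was chosen after its values were seen. Downstream, AT3G61850 (3812 bases away) had 11 and 6 counts, a ratio of 0.564 (0.171 to 1.66). Upstream, AT3G61820 (6113 bases away) had 6002 and 5584 counts, a ratio of 0.962 (0.928 to 0.998).

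Of the other repressor-type ARFs, ARF3 and ARF4 had ratios of 0.971 (0.866 to 1.09) and 1.08 (0.895 to 1.31). Both are silenced by trans-acting small RNAs and act in leaf polarity. These genes have 1 model each in the table, with 623 and 222 counts in wild type. Of the repressor-type ARFs that the microRNA miR160 targets, ARF10 was lower in counts in the overexpression library. It had 131 wild-type and 84 overexpression counts, a ratio of 0.663 (0.498 to 0.879). ARF16 had 102 and 93 counts, a ratio of 0.943 (0.704 to 1.26), and ARF17 had 41 and 50, a ratio of 1.26 (0.818 to 1.96). Of the 5 activator ARFs listed, 2 were expressed, that is, reached a mean RPKM of 1. ARF7 has no row. ARF6, with 2 models in the table, had 11 wild-type and 3 overexpression counts, and its level may be understated like those of the relatives. ARF8, with 1 model, had 5 and 7 counts. ARF5, known as MONOPTEROS for its part in embryo and vascular patterning, had 411 and 357 counts, a ratio of 0.899 (0.778 to 1.04). ARF19, which acts in lateral root formation, had 66 and 36, a ratio of 0.564 (0.365 to 0.859). Thus 1 of the 3 miR160-target ARFs and 1 of the 2 expressed activators had an interval below 1, as did 15.6% of all expressed loci, and none was 2-fold apart on the log2(RPKM + 1) scale. Adjusted for length and GC content, the log2 ratios of ARF10, ARF19 and ARF5 went from -0.51 to -0.33, from -0.53 to -0.21 and from -0.15 to 0.11. Those of ARF16 and ARF17 went from -0.07 to 0.12 and from 0.25 to 0.42. Of the 8 ARFs clustered on chromosome 1 (ARF12 to ARF15 and ARF20 to ARF23), only ARF20 has a row, with 1 wild-type and 2 overexpression counts. The ARF20 transcript shares 33.2% of its 50-base windows with other ARFs, and a read from those could not be assigned to 1 gene.

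The TOPLESS family codes for co-repressors that act with Aux/IAA proteins and some repressor ARFs. TPR2, with 1 model, had 855 wild-type and 622 overexpression counts, a ratio of 0.753 (0.678 to 0.835). TPR4 had 30 and 29 counts, a ratio of 1.00 (0.579 to 1.72). Neither of these 2 expressed members, of 5 listed, was 2-fold apart, and 15.6% of all expressed loci had an interval below 1 as TPR2 did. The log2 ratio of TPR2 was -0.40, or -0.06 adjusted for length and GC content. TPL, TPR1 and TPR3 did not reach a mean RPKM of 1. TPL and TPR1, like TPR4, have 2 models each in the table, so their levels may be understated beside that of TPR2, which was not tested.

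Aux/IAA genes, which code for partners of ARFs and are themselves switched on by auxin, had 18 expressed members of 29 listed. None was 2-fold apart in either direction on the log2(RPKM + 1) scale. Intervals lay above 1 for 4 of them, or 22.2%, against 18.7% of all expressed loci, and below 1 for 0, against 15.6%. Their median log2 ratio was 0.21, against 0.03 over all expressed loci, and 0.00 adjusted for length and GC content. The largest absolute values were those of IAA12 (0.48; 22 wild-type and 33 overexpression counts), IAA10 (0.44; 19 and 28), IAA17 (0.42; 848 and 1098) and IAA19 (0.38; 31 and 41). Of these only IAA17 had an interval above 1, at a ratio of 1.34 (1.22 to 1.47). IAA12 has 2 models in the table. So do IAA8, IAA11 and IAA13, which did not reach a mean RPKM of 1. Levels of genes with several models may be understated, and whether that alters the number expressed was not tested.

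Genes reported to act on ARF2 or to be repressed by it went both ways, and none of the 5 expressed of 7 listed was 2-fold apart on the log2(RPKM + 1) scale. BIN2, a brassinosteroid pathway kinase that phosphorylates ARF2, had 2068 wild-type and 2381 overexpression counts, a ratio of 1.19 (1.12 to 1.26). HLS1, the apical hook gene that acts upstream of ARF2, had 28 and 33 counts, a ratio of 1.22 (0.714 to 2.09). Of the reported targets, the GATA factor gene GNC, which promotes greening, had 38 and 18 counts, a count ratio of 0.490 (0.263 to 0.880), which is 2.04-fold lower, and a log2(RPKM + 1) ratio of -0.71. ANT, a regulator of organ growth, had 465 and 330 counts, a ratio of 0.734 (0.636 to 0.847). HB33, a homeobox gene of abscisic acid response, had 17 and 30 counts, a ratio of 1.83 (0.975 to 3.53). Both GNC and ANT were thus lower in counts in the overexpression library, and the interval of HB33 included 1. Intervals lay below 1 for 2 of the 5 expressed genes and above 1 for 1, against 15.6% and 18.7% of all expressed loci. Adjusted for length and GC content, the log2 ratios of GNC, ANT and HB33 were -0.71, -0.32 and 0.60. The potassium transporter gene HAK5 and the GATA factor gene GNL had at most 2 counts in a library.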

How the data were processed

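RNA of 1 wild-type and 1 overexpression library was made into cDNA with random primers, per the labels' protocols. Per the submitters' processing notes, the build was TAIR 10. For each transcript model the authors deposited raw counts, RPKM values, and the log2 ratio of the RPKM columns with a p-value and FDR from an unnamed test on the reads. The aligner, the strandedness, the read length and the program that counted reads were not given in the sources used here. Deposited RPKM values differed from those recomputed from counts and lengths by at most 3.23e-06 percent. An RPKM of 0.01 at 0 counts was set to 0. The table lists models with at least 1 read.

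Counts and RPKM were summed per locus. Log2 ratios used RPKM with a pseudocount of 1, which understates the difference of low genes, and loci with a mean RPKM of 1 or more counted as expressed. Count ratios were taken per library total. To adjust for transcript length, expressed nuclear loci were put in 50 bins by length and each bin's median log2 ratio was taken off. The same was then done for GC content (known for 15069 loci). Genes below that level took the medians of the bins they fell in. Bounds against a library with 0 counts set it to 3 counts. Transcripts and symbols came from RefSeq on TAIR 10.1, which is newer than the models counted and whose lengths differ for some. Distinguishing windows were taken among models numbered up to the highest in the table, and, as an alternative, among all annotated models. Genes named are the 5 members, expressed members of lists of 8 or fewer, and 4 Aux/IAA genes by size. The 3 loci nearest to ARF18 in ratio and its neighbours are also named. Others are marked, or are named for a low level or a missing row. Members and lists were chosen with earlier results of these data known. The steps were tested on simulated counts. The work used Python 3.11.15, numpy 2.4.6, pandas 2.3.3, scipy 1.17.1, matplotlib 3.10.9, biopython 1.88, and edgeR 4.0.16 in R 4.3.3 for trimmed mean of M values (TMM) factors only.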

Additional observations from a re-analysis of the deposited data

How the results depend on the processing

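No paired analysis was possible because there was only 1 library of either genotype. Leaving out a replicate was not possible either. ARF18 was at least 1.67 on the log2 scale under each alternative, the value with a pseudocount of 5 RPKM. Log2 ratios of ARF2, ARF9 and ARF1 stayed within their counting intervals under each alternative, and their count of 0 at least 2-fold apart was 0 throughout, including at 1.5-fold. The list medians moved within the spread of their members. The background of 188 higher and 100 lower loci was 391 and 249 at a pseudocount of 0.1 and 23 and 33 at 5. It was 61 and 65 under a filter of 5 RPKM, 941 and 711 at 1.5-fold, and 2820 and 2352 by counting intervals. Adjusted for length and GC content, 77 were higher and 131 lower, so the balance turned; the cause was not tested. The share of ARF18 in the sum of ARF18 and ARF11 was not run, since ARF11 has no row. With windows of 90 bases, chosen after seeing the data, 13.1% of models with 0 distinguishing windows had a row, against 80.5% of the others. Depth limits the values of ARF9 and ARF1 most.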

Other observations

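A further small locus numbered next to ARF18, AT3G61827 (chosen after its values were seen), stood at 0 wild-type and 11 overexpression counts, or at least 3.79-fold more when the wild-type library is set to 3 counts, its floor. The exact counting interval of the ratio starts lower, at 2.60. RefSeq on TAIR 10.1 does not hold this locus, so its distance from ARF18 is not given. Of 21682 nuclear loci, 2 had 0 counts in wild type and 11 or more in the overexpression library, and 3 the reverse.

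The co-repressor gene TPR1 had 16 wild-type and 3 overexpression counts, a ratio of 0.194 (95% exact conditional binomial interval 0.0362 to 0.678). Its mean RPKM was 0.360, below the level at which genes were compared, and it was chosen after its values were seen.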
